A study of Mus musculus with 12 samples.

Results

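The 112 most abundant long intergenic noncoding RNAs (lincRNAs) of mouse mammary organoids were followed over increasing doses of CHIR99021. They were chosen by 2 entries of the deposited count table, the biotype lincRNA and a mean raw count of at least 50 over the 12 libraries, without the imprinted genes H19 and Meg3. The table holds 25210 rows, of which 1430 are lincRNAs and 1316 of those fall under the mean of 50. No difference between groups was used for the choice. The members just inside it are Gm10687, A430046D13Rik and ENSMUSG00000100493, with means of 52.1, 51.8 and 51.5 counts, and the rows just outside are Gm26981, Gm4755 and Pinc, with 49.4, 49.3 and 49.3. Of the members, 40 had a mean under 50 in at least 1 group, 5 of them with DMSO and 35 at 3 µM, so those rows passed partly through the groups where they were higher.

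Organoids were made from mammary epithelium of virgin FVB/N females aged 8 to 11 weeks. They were embedded in growth-factor-reduced Matrigel, a basement membrane gel, in minimal medium, and for 7 days the medium held the vehicle dimethyl sulfoxide (DMSO) or 1, 1.5 or 3 µM of CHIR99021. This compound blocks the kinase GSK3, and the labels name it as an activator of WNT/CTNNB1 signalling. Each of 3 animals gave 1 culture, called culture 1, 2 or 3 here, and each culture was split over all 4 treatments. Polyadenylated RNA of the whole culture was sequenced with strand-specific TruSeq libraries.

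LincRNAs are transcripts from between protein-coding genes that carry no known reading frame, and many are spliced and polyadenylated like messenger RNA. Some act as RNA in the nucleus, such as Xist, which coats and silences 1 X chromosome in female cells, and Neat1, the scaffold of nuclear bodies called paraspeckles. Others are the spliced remains of host transcripts whose introns or exons give small nucleolar RNAs (snoRNAs), which guide the modification of ribosomal RNA, or microRNAs. Many more have no described role and are named here by their locus only. The type lincRNA is that of the deposited table. Of the 102 members found in the annotation GENCODE M21, 73 are typed lincRNA there, 10 antisense, 1 snoRNA and 1 protein-coding. The exons of Yam1, Malat1 and Neat1 cover the whole row there, so not all members are spliced. Of all 112 members, 29 overlap a protein-coding gene of the table.

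Library totals ran from 10129264 to 24485855 counts. The 112 lincRNAs held between 1.59% and 2.94% of a library's counts, of which the single row Yam1 held 0.793% to 2.1%. The 5 most abundant members held 92.9% to 95.6% of the members' counts. Without Yam1 the mean share of a library was 0.952 ± 0.108% (SD, n = 3 in each group) with DMSO. It was 1.07 ± 0.0848% at 1 µM and 0.905 ± 0.0255% at 1.5 µM, and at 3 µM it was 0.491 ± 0.176%. Markers of other cells moved with dose in the same libraries. Between the DMSO and the 3 µM libraries the summed level of 7 endothelial markers went from a range of 294 to 608 CPM to 33.3 to 100.1. CPM is the count scaled to library size with TMM factors, as in the tests. The sum of 5 adipocyte markers went from 3375 to 8990.2 CPM to 36.2 to 237. That of the 8 tested macrophage or immune markers went from 266 to 2585 CPM to 39.5 to 119.8, and that of 10 fibroblast markers from 4044 to 24259.5 CPM to 235 to 5353. All 7 endothelial and all 5 adipocyte markers fell at 3 µM, as did 2 of 10 fibroblast (8 with the culture as a block in the model), 6 of 8 tested macrophage or immune, 6 of 10 luminal and 5 of 8 basal markers, while all 11 squamous markers, all 14 proliferation genes and 3 basal markers rose. The summed luminal level was 3204 to 5407 CPM with DMSO and 2356.5 to 2640.5 at 3 µM, and the squamous level 34.3 to 88.4 and 10902 to 35952. The summed basal level was 2103 to 3336 CPM with DMSO and 14459 to 31317 at 3 µM. Krt14, Krt5 and Trp63 were the 3 basal markers that rose. In bulk RNA of this kind, fewer cells of a type and less RNA per cell cannot be told apart, and the part of these cell types in the lincRNA results was not tested.

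**Figure D1:**
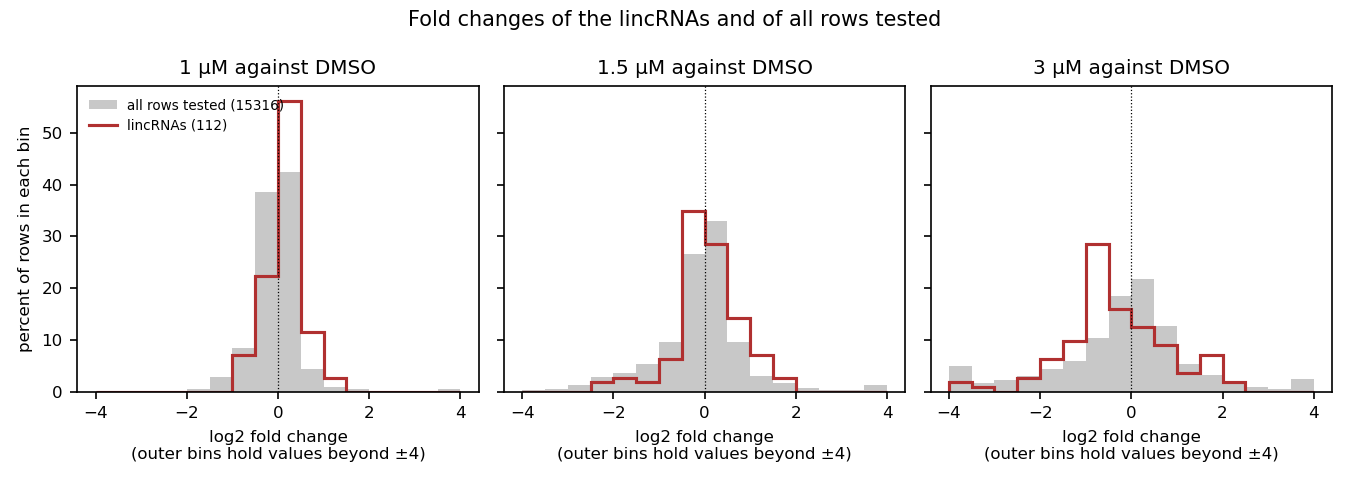
Share of rows (percent, vertical axis) by log2 fold change against DMSO (horizontal axis, bins of 0.5) at 1, 1.5 and 3 µM CHIR99021. Grey areas are all 15316 rows tested and red lines the 112 lincRNAs, whose median lay at 0.17, 0.08 and -0.48 at the 3 doses.

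At 3 µM CHIR99021 the nuclear lincRNAs Malat1, Neat1, Xist, Jpx and Ftx were all lower than with DMSO, and most hosts of snoRNAs were higher. Called here means an adjusted p under 0.05 in edgeR's quasi-likelihood test, adjusted by Benjamini and Hochberg over all 15316 rows tested, and all 112 members were among the rows tested. At 3 µM 64 members were called (57.1%), against 57.5% of all rows tested. They fell more often than they rose: 45 members were lower (40.2%, against 27.7% of all rows) and 19 higher (17%, against 29.9%). The median log2 fold change of the members was -0.48, and that of all rows tested -0.03. This difference in direction between the members and the other rows was not tested. Every called member changed in its direction in 3 of 3 cultures, as did 99.2% of all called rows. By more than 2-fold, 14 rose (13.1% of all rows) and 22 fell (18.3% of all rows). The range of the 3 µM libraries lay wholly above that of the DMSO libraries for 21 members (30.9% of all rows) and wholly below it for 48 (29.9% of all rows). Without culture 1 or without culture 2 the count of called members was 35 and 36. Here and below, the share of all rows called was not taken in fits on fewer libraries. A loss of calls over all rows therefore cannot be told apart there from a loss particular to the members. With the culture as a block the count was 77, against 68.9% of all rows. Scaling to library totals alone moved the median of all rows to -0.23 and called 15 members higher and 52 lower, against 57.4% of all rows in either direction, and all 64 called members kept their sign under it.

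At 1.5 µM 22 members were called against DMSO, 16 higher (15.4% of all rows) and 6 lower (11.8% of all rows), a share of 19.6% against 27.3% of all rows tested. The 1.5 µM libraries lay wholly above DMSO for 29 members (24.9% of all rows) and wholly below for 15 (20.7%). With the culture as a block in the model the count was 36, against 46.7% of all rows. It was 13 without the DMSO library of culture 2, 7 without culture 1 and 5 without culture 2. All of the 19 members called at both 1.5 and 3 µM had the same sign at both doses, which share their DMSO libraries. At 1 µM edgeR called 0 members, against 0.242% of all rows, with 18 at an unadjusted p under 0.05, and DESeq2 called 7 (3.42% of the rows it adjusted). The 1 µM libraries lay wholly above DMSO for 24 members (11.2% of all rows) and wholly below for 6 (8.27%). The model with the culture block called 9 at 1 µM (5.61% of all rows), all higher: Snhg1, Snhg4, Snhg6, Snhg12, 2410004N09Rik, Mir17hg, Crnde, Gm21817 and BC002059. A slope over dose was called in 59 members, 16 rising (30.2% of all rows) and 43 falling (28% of all rows), against 58.2% of all rows in either direction, and in 36 without culture 1. The dose of the highest mean was 1 µM for 39 members, DMSO for 27, 3 µM for 24 and 1.5 µM for 22. That split was not taken over all rows. The mean was lower at every step in 21 members (23.9% of all rows) and higher at every step in 15 (23.2% of all rows).

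**Figure D2:**
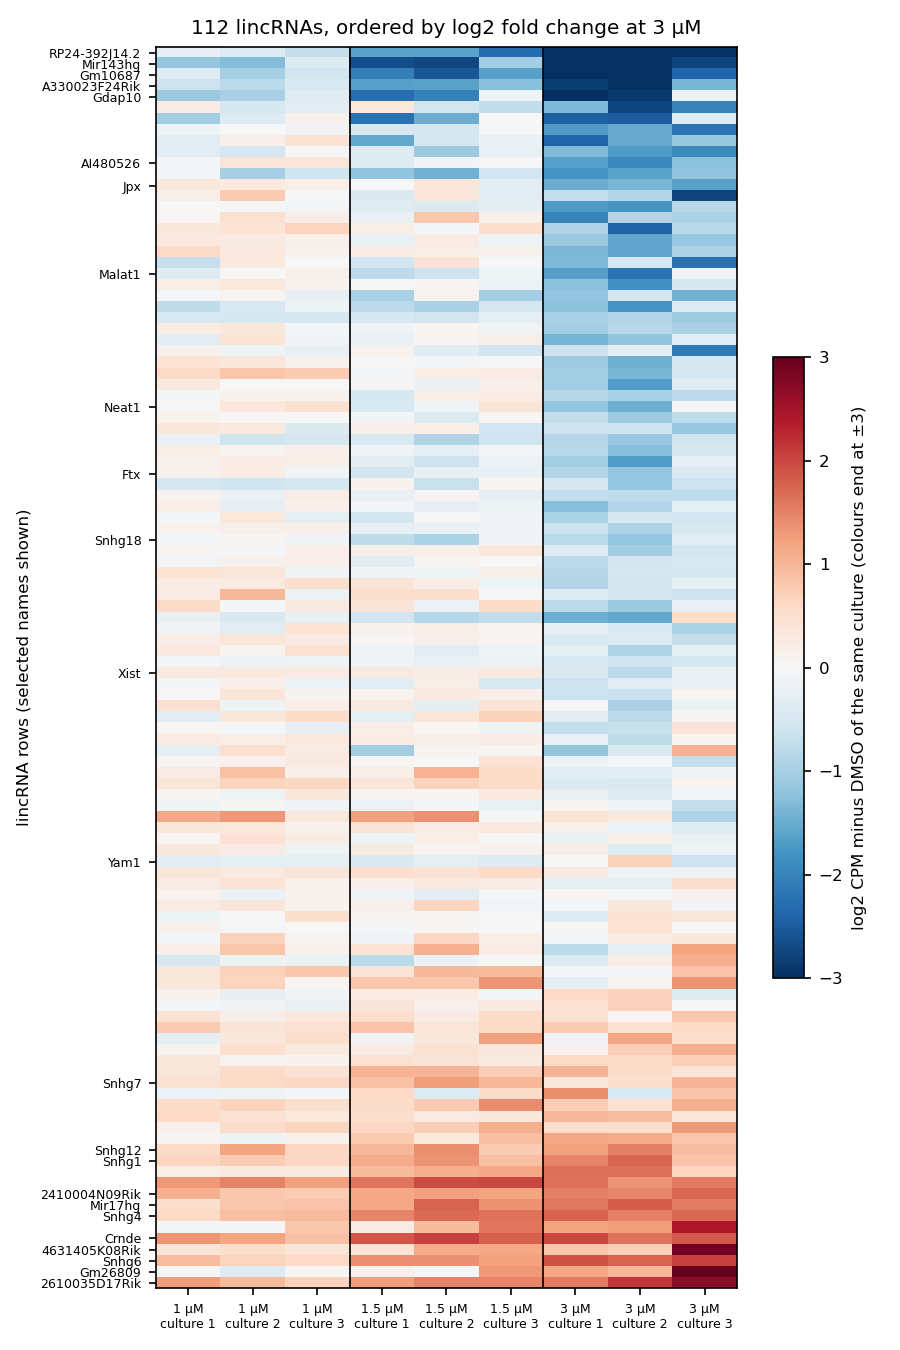
Log2 CPM of each of the 112 lincRNAs (rows) in each CHIR99021 library (columns) minus that of the DMSO library of the same culture, with rows ordered by the fitted log2 fold change at 3 µM and colours ending at ±3. Blue (lower) spreads over the upper rows at 3 µM, and the snoRNA hosts among the named rows lie near the red lower end, apart from Snhg18.

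Yam1 was the most abundant lincRNA in every group, and its level did not pass the test at any dose. Its row (ENSMUSG00000098178, chr17:39846958-39848788, coordinates as deposited, GRCm38) is the gene Gm42418 of GENCODE M21, a single exon of 1831 bases on the plus strand. In that annotation its first 1244 bases, 67.9% of it, overlap on the opposite strand a transcript of CT010467.1, which is typed as ribosomal RNA. The strand annotated for CT010467.1 was not checked against an 18S ribosomal RNA sequence, so which strand is that of ribosomal RNA was not tested. RefSeq places the 18S ribosomal pseudogene Rn18s-rs5 over 1245 bases of the row. The 120 bases at the end of that overlap are shown because they mark where the annotated overlap ends, with the overlapping bases in capitals (chr17:39848142-39848261, GRCm38, plus strand, from the GENCODE M21 transcript).
Yam1: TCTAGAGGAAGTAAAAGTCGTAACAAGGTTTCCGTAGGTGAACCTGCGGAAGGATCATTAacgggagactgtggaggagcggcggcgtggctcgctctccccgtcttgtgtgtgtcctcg
Yam1 was described as a regulator of muscle cell differentiation, while 18S ribosomal RNA is made from many identical repeats of ribosomal DNA and carries no poly(A) tail. From these counts, reads of a lincRNA and reads of ribosomal RNA over this row cannot be told apart.

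Yam1 stood at 13304, 9172 and 20759 CPM in cultures 1, 2 and 3 with DMSO. It stood at 10509.8, 7517 and 17066 CPM at 1 µM and 9881, 7579.9 and 15985 at 1.5 µM. At 3 µM the 3 libraries held 13127, 14930.5 and 13518 CPM. Culture 3 was highest and culture 2 lowest in the first 3 groups, and the cultures drew together at 3 µM, all inside the DMSO range. The log2 fold change was -0.30 at 1 µM, -0.37 at 1.5 µM and -0.06 at 3 µM, each with a standard error of 0.38 and adjusted p of 0.827, 0.495 and 0.906. The 3 µM sign turned to 0.07 with the culture block and to 0.27 without the DMSO library of culture 3. The level differed between cultures (adjusted p = 0.0357, edgeR, 2 degrees of freedom). Per kilobase of exon, over all libraries, Yam1 stood at 6979 CPM, Malat1 at 431, Xist at 132 and Neat1 at 78.4, the highest of the 89 members whose exon length could be taken from GENCODE M21.

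Over the 12 libraries, the 5 tested genes whose log2 CPM followed Yam1 most closely were Foxa1 (Pearson r 0.917), Tm9sf2 (0.880), Elf3 (0.842), Plac8 (0.831) and Fam53a (0.822). Foxa1 and Elf3 are transcription factors of luminal epithelium. Foxa1 and Plac8 were scarce, with means of 1.67 and 1.16 CPM. Not all luminal markers shared the order of the cultures: Krt19, a luminal keratin, held 1463, 825 and 611 CPM in cultures 1, 2 and 3 with DMSO, where Yam1 was highest in culture 3. All points share the libraries and their depth. At 3 µM the adjusted p of these 5 genes ran from 0.437 to 0.869 in edgeR's test. Foxa1, Elf3 and Plac8 differed between cultures in edgeR's test (adjusted p = 0.00273, 0.0236 and 0.00118).

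The nuclear lincRNAs fell at 3 µM, 5 of 5 listed, against 27.7% of all rows tested. Malat1, which accumulates in nuclear speckles beside the splicing factors (chr19:5795690-5802672), stood at 4397, 4534 and 2888 CPM in the 3 DMSO cultures and 3409.6, 4496 and 3193 at 1 µM. It stood at 2557, 2971 and 2627 CPM at 1.5 µM and 1395, 970.1 and 2680.1 at 3 µM. The 3 µM libraries lay below all DMSO libraries, but in culture 3 the level hardly differed between them. Malat1 was 2.34-fold lower at 3 µM (log2 fold change -1.23, standard error 0.33, adjusted p = 0.00978). Its log2 fold change was -0.09 at 1 µM and -0.54 at 1.5 µM, neither called.

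Neat1 (chr19:5824708-5845478), near it on the same chromosome and the RNA scaffold of paraspeckles, stood at 2152, 1910.0 and 1283 CPM with DMSO and 2158, 2391 and 1761 at 1 µM. The values were 1580.0, 1766 and 1646 CPM at 1.5 µM and 951, 695 and 1241 at 3 µM. The 3 µM libraries were all below the DMSO libraries, with culture 3 the closest. Neat1 fell 1.85-fold (log2 fold change -0.89, standard error 0.23, adjusted p = 0.00845), and most of that lay between 1.5 and 3 µM (log2 fold change -0.79, adjusted p = 0.0295). Malat1 and Neat1 share culture 3 as the one that changed least.

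Of the X-inactivation RNAs, Xist (chrX:103460375-103483217) stood at 2156, 2241 and 2451 CPM with DMSO and 2645, 2747 and 2926 at 1 µM. It stood at 2583, 2628 and 2949 CPM at 1.5 µM and 1594, 1292 and 2139 at 3 µM. All libraries at 1 and 1.5 µM lay above every DMSO library, and all 3 µM libraries lay below. Neither difference from DMSO was called (adjusted p = 0.557 and 0.275). The fall at 3 µM was 1.36-fold (log2 fold change -0.45, standard error 0.16, adjusted p = 0.0386), and it lost its call when any 1 of 9 libraries was left out, which were all but those of culture 3 given CHIR99021, with an adjusted p up to 0.106. Between 1.5 and 3 µM the log2 fold change was -0.70 (adjusted p = 0.0111). Tsix, the antisense gene, overlaps Xist in the table, and the sources used here do not say whether counting used the strand.

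Jpx (chrX:103493558-103506425), an activator of Xist transcribed next to it, held 5.51, 4.37 and 6.25 CPM with DMSO, 5.54, 5.65 and 4.92 at 1.5 µM and 1.88, 1.60 and 1.93 at 3 µM. The 3 µM values were far below the rest and close together. It fell 2.98-fold (log2 fold change -1.57, standard error 0.21, adjusted p = 0.000138), nearly all of it above 1.5 µM (log2 fold change -0.01 at 1.5 µM against DMSO and -1.57 at 3 against 1.5 µM). Ftx (chrX:103560907-103623754), another noncoding gene of the X-inactivation centre, held 15.9, 13.6 and 12.8 CPM with DMSO and 8.63, 5.97 and 9.45 at 3 µM, with no overlap. Its log2 fold change was -0.82 (standard error 0.20, adjusted p = 0.00496). Of the 5 nuclear lincRNAs, Jpx alone was still called both without culture 1 and without culture 2 (adjusted p = 0.0112 and 0.00792), while for the other 4 the adjusted p was 0.0617 to 0.255.

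**Figure D3:**
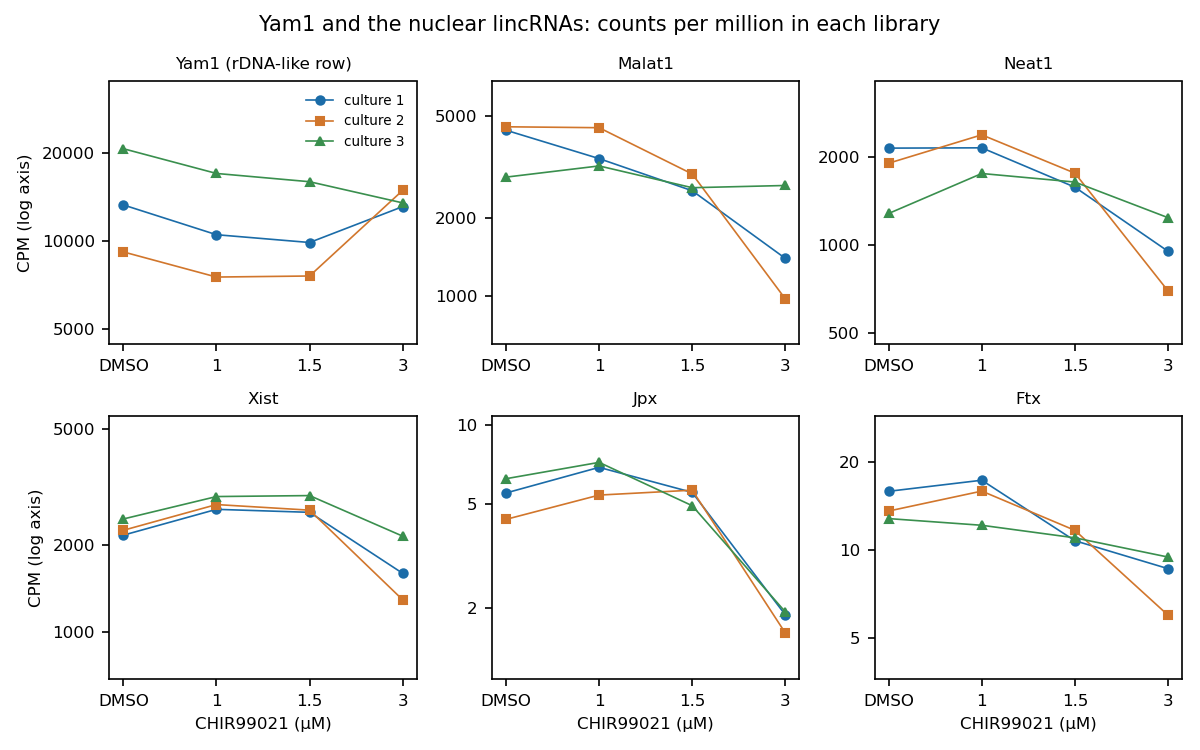
CPM on a log axis (vertical) in each of the 12 libraries by CHIR99021 dose (horizontal, groups evenly spaced) for Yam1 and the 5 nuclear lincRNAs, with a line per culture. The nuclear lincRNAs are lowest at 3 µM in every culture but Malat1 in culture 3, and Yam1 shows no common course.

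The messenger RNAs of proteins that work with these RNAs mostly did not fall with them, and protein itself was not measured. Of all rows tested, 29.9% were called higher at 3 µM and 27.7% lower. Of 16 listed paraspeckle and speckle proteins, 11 rose at 3 µM and 1, Son, fell, with Nudt21 at 0.83 on the log2 scale (40.1 ± 3.89 CPM with DMSO, 71.3 ± 9.51 at 3 µM, adjusted p = 0.00019) and Dazap1 at 0.74 on the log2 scale (52.9 ± 5.78 CPM with DMSO, 88.1 ± 23.9 at 3 µM, adjusted p = 0.00898). Of 8 listed proteins that bind Xist or act in X inactivation, 2 rose, Lbr at 1.33 on the log2 scale (28.3 ± 0.820 CPM with DMSO, 71.3 ± 25.4 at 3 µM, adjusted p = 0.000578) and Smchd1 at 0.45 on the log2 scale (82.3 ± 3.56 CPM with DMSO, 113 ± 9.69 at 3 µM, adjusted p = 0.00298), and with scaling to library totals alone 2 rose and 2 fell. Of the 7 subunits of the Polycomb complex PRC2, a histone methyltransferase that several of these RNAs are reported to bind, 6 rose, with Jarid2 at 1.56 on the log2 scale (53.8 ± 8.23 CPM with DMSO, 159 ± 28.6 at 3 µM, adjusted p = 3.99e-05) and Ezh2 at 1.19 on the log2 scale (30.9 ± 2.71 CPM with DMSO, 70.8 ± 13.0 at 3 µM, adjusted p = 5.96e-05). Of 11 listed parts of the nuclear RNA exosome and its adaptors, the machinery that degrades nuclear RNA, 8 rose, with Exosc2 at 1.25 on the log2 scale (17.9 ± 2.83 CPM with DMSO, 42.7 ± 11.4 at 3 µM, adjusted p = 0.000371) and Dis3 at 1.1 on the log2 scale (30.2 ± 1.07 CPM with DMSO, 64.8 ± 12.4 at 3 µM, adjusted p = 9.53e-05). The medians of these 4 lists were 0.55, 0.13, 0.91 and 0.55 on the log2 scale, against -0.03 over all rows tested. All 3 listed Pumilio proteins and partners, which the lincRNA Norad binds, rose too, and 1 of the 3 with scaling to library totals alone.

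Most of the snoRNA host RNAs rose, 6 of 8 listed at 3 µM and 6 of 8 at 1.5 µM. Of all rows tested, 29.9% and 15.4% were called higher at these doses. With scaling to library totals alone 4 of 8 were called at 3 µM. These spliced RNAs carry snoRNAs in their introns, and the exons are usually degraded by nonsense-mediated decay. Many begin with a run of pyrimidines (C and T), as ribosomal protein genes do. The first bases of the 7 members with a small RNA of this kind inside that matched a RefSeq promoter by name are shown for that reason, as 50 bases with the annotated start at base 21 and the longest run of C and T that lies from 5 bases before to 19 after the start in capitals (RefSeq, GRCm38.p6).
Snhg1: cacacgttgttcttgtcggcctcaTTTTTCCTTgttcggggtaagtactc
Snhg12: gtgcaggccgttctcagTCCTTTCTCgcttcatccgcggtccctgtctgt
Snhg7: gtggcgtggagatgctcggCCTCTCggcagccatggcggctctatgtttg
Snhg20: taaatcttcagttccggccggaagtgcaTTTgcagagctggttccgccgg
Snhg18: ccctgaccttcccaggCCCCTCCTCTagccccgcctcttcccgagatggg
2700038G22Rik: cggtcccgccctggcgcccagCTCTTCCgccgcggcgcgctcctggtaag
2900076A07Rik: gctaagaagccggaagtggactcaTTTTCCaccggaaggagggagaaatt
The windows lie at chr19:8723467-8723516 (plus strand), chr4:132308658-132308707 (plus), chr2:26640215-26640264 (minus), chr11:117076763-117076812 (plus), chr15:32244633-32244682 (minus), chr5:23850577-23850626 (plus) and chr7:81523530-81523579 (plus). The longest run had 10 bases in Snhg18, 9 in Snhg1 and Snhg12, 7 in 2700038G22Rik, 6 in Snhg7 and 2900076A07Rik and 3 in Snhg20. Runs of at least 9 were found in 5.49% of all 32851 RefSeq promoters and runs of at least 7 in 13.6%. Snhg20 is the row 2810008D09Rik of the table.

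Snhg1 (chr19:8723496-8726442), which holds 8 snoRNA genes of GENCODE M21, stood at 40.7, 32.9 and 45.6 CPM with DMSO and 63.6, 55.5 and 69.6 at 1 µM. It stood at 88.7, 84.1 and 85.2 CPM at 1.5 µM and 112, 110.1 and 82.1 at 3 µM. Every library of every CHIR99021 group lay above every DMSO library. Snhg1 was 2.16-fold higher at 1.5 µM (log2 fold change 1.11, standard error 0.15, adjusted p = 0.000838) and 2.55-fold higher at 3 µM (log2 fold change 1.35, standard error 0.15, adjusted p = 4.85e-05). At 1 µM its adjusted p was 0.116, and 0.0378 with the culture block. Its head-to-head neighbour Slc3a2, the heavy chain of amino acid transporters, whose body lies 127 bp away, had 463 ± 57.0 CPM with DMSO and 189 ± 22.9 at 3 µM (log2 fold change -1.29, standard error 0.12, adjusted p = 2.03e-05), the opposite direction.

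Snhg6 (chr1:9941959-9944118), host of Snord87, stood at 7.38, 7.72 and 8.89 CPM with DMSO and 14.17, 12.4 and 13.5 at 1 µM. It stood at 19.3, 20.1 and 20.7 CPM at 1.5 µM and 28.1, 26.4 and 37.4 at 3 µM. No 2 groups overlapped, and each dose lay above the one before. It was the only member called higher in both steps above 1 µM, with log2 fold changes of 0.58 from 1 to 1.5 µM (adjusted p = 0.0435) and 0.61 from 1.5 to 3 µM (adjusted p = 0.0106). Neither step was called with scaling to library totals alone (adjusted p = 0.0658 and 0.119). Against DMSO it was 3.83-fold higher at 3 µM (log2 fold change 1.94, standard error 0.15, adjusted p = 5.84e-06).

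Snhg4 (chromosome 18, start 35553371, end 35558316), which overlaps Snora74a, held 8.35, 6.30 and 7.00 CPM with DMSO, 12.8, 11.9 and 13.6 at 1 µM, 23.1, 20.9 and 21.9 at 1.5 µM and 28.5, 18.3 and 23.4 at 3 µM. It had reached its level by 1.5 µM, where it was 3.03-fold above DMSO (log2 fold change 1.60, standard error 0.17, adjusted p = 0.000344), and it did not pass the test between 1.5 and 3 µM (log2 fold change 0.09). At 3 µM its log2 fold change was 1.69 (standard error 0.17, adjusted p = 2.81e-05). 2410004N09Rik (chromosome 18, start 33794892, end 33795986; Epb41l4aos in GENCODE M21), with 1 snoRNA inside, held 6.98, 6.30 and 8.56 CPM with DMSO and 20.1, 17.2 and 28.6 at 3 µM, without overlap (log2 fold change 1.59, standard error 0.22, adjusted p = 0.000193).

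Snhg12 (chr4:132308678-132311024) held 12.3, 6.19 and 17.3 CPM with DMSO, 18.4, 14.3 and 26.8 at 1 µM, 24.7, 16.5 and 29.3 at 1.5 µM and 28.3, 17.8 and 32.8 at 3 µM. Culture 2 was lowest and culture 3 highest in each group, and each culture was higher at every step. Its log2 fold change at 3 µM was 1.13 (standard error 0.39, adjusted p = 0.0302). The call was lost without the DMSO library of culture 1 or 2 or the 3 µM library of culture 1 or 3 (adjusted p up to 0.0897) and with scaling to library totals alone. With the culture block the adjusted p was 6.32e-05 at 3 µM, 0.000453 at 1.5 µM and 0.0196 at 1 µM.

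Snhg7 (chr2:26637177-26640244) is named Snora43 and typed snoRNA in GENCODE M21. It held 9.60, 7.31 and 8.89 CPM with DMSO, 17.7, 17.6 and 17.7 at 1.5 µM and 12.2, 10.3 and 18.0 at 3 µM. Its mean was highest at 1.5 µM (log2 fold change 1.03, adjusted p = 0.00499), and its call at 3 µM (log2 fold change 0.65, adjusted p = 0.0197) was lost without the DMSO library of culture 2 or 3 or the 3 µM library of culture 3 (adjusted p up to 0.0784) and with scaling to library totals alone. 2810008D09Rik, named Snhg20 in GENCODE M21, was called at 1.5 µM (log2 fold change 0.77, adjusted p = 0.0475), which was lost in all but 2 of the 12 fits without 1 library, and was 0.32 at 3 µM (adjusted p = 0.305). Snhg18 went from 5.73, 9.24 and 13.4 CPM with DMSO to 3.21, 4.04 and 10.6 at 3 µM. It was lower in each of the 3 cultures, but the groups overlapped (log2 fold change -0.66, adjusted p = 0.368), and with the culture block it was called lower (adjusted p = 0.0147).

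**Figure D4:**
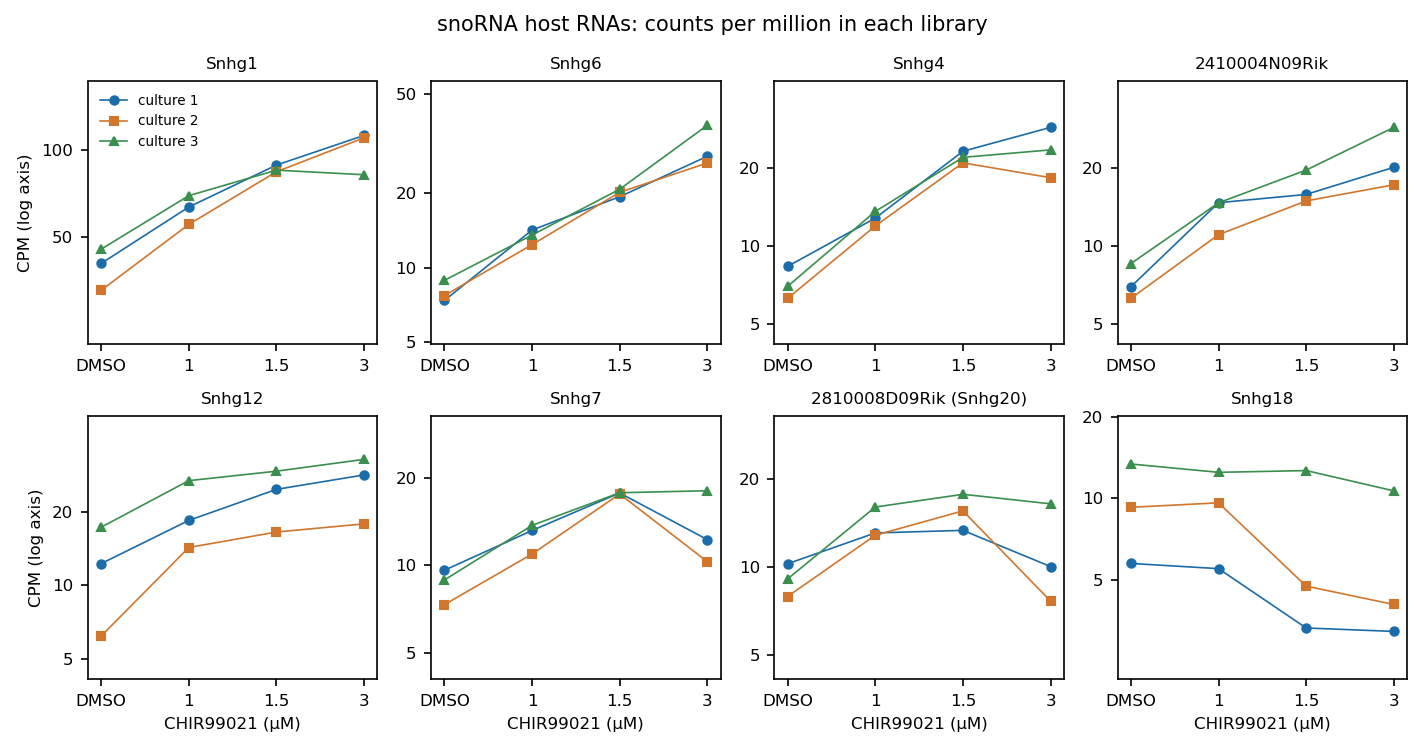
CPM on a log axis (vertical) in each of the 12 libraries by CHIR99021 dose (horizontal, groups evenly spaced) for the 8 listed snoRNA host RNAs, with a line per culture. Snhg1, Snhg6, Snhg4, 2410004N09Rik and Snhg12 rise from DMSO to 3 µM in every culture, and Snhg18, not called, is lower at 3 µM in every culture.

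By position, 10 members hold a snoRNA or scaRNA gene of GENCODE M21 on their own strand (on either strand for a row without a match), the 8 above with 2700038G22Rik (Snord93) and 2900076A07Rik (Mir1839, listed under both kinds). Of these 10, 7 were higher at 1.5 µM (15.4% of all rows) and 6 at 3 µM (29.9% of all rows). At 3 µM 1, 2900076A07Rik, was lower (27.7% of all rows). 2700038G22Rik had a log2 fold change of 0.92 at 1.5 µM (adjusted p = 0.0316) and 0.64 at 3 µM (adjusted p = 0.0688). Messenger RNAs for proteins of the same particles were higher too. All 8 listed snoRNP core proteins in the table rose at 3 µM, with Nop56 at 1.98 on the log2 scale (50.7 ± 3.32 CPM with DMSO, 199.9 ± 25.5 at 3 µM, adjusted p = 1.8e-06) and Nhp2 at 1.88 on the log2 scale (30.1 ± 4.24 CPM with DMSO, 111 ± 20.2 at 3 µM, adjusted p = 1.33e-05). Of 14 listed genes of the RNA polymerase I machinery, which transcribes ribosomal DNA, 10 rose and none fell. Taf1d was at 1.77 on the log2 scale (18.6 ± 1.71 CPM with DMSO, 63.5 ± 9.41 at 3 µM, adjusted p = 7.55e-06). Polr1b was at 1.45 on the log2 scale (28.0 ± 1.87 CPM with DMSO, 76.2 ± 6.76 at 3 µM, adjusted p = 4.87e-06). Of 8 listed factors of nonsense-mediated decay, Upf1 rose, at 0.47 on the log2 scale (69.8 ± 11.6 CPM with DMSO, 96.6 ± 3.87 at 3 µM, adjusted p = 0.012), a call lost with scaling to library totals alone, and Smg6 fell, at -0.27 on the log2 scale (67.0 ± 5.71 CPM with DMSO, 55.7 ± 3.78 at 3 µM, adjusted p = 0.0322). The list medians were 1.60, 0.95 and 0.13 on the log2 scale.

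Among the miRNA hosts, Mir17hg rose, the row over Mir29b-2 and Mir29c fell, and the row over Mir205 rose mainly in 1 culture. A miRNA represses messenger RNAs that pair with its seed, bases 2 to 8. Only host RNA was measured here, not mature miRNA. The mature sequences are shown so that members of 1 seed family can be seen, with the seed in capitals (RefSeq, GRCm38.p6). The 6 of Mir17hg lie on chromosome 14, plus strand, from 115043684 to 115044496.
mmu-miR-17-5p: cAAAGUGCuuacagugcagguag
mmu-miR-20a-5p: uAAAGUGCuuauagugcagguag
mmu-miR-18a-5p: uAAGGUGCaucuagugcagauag
mmu-miR-19a-3p: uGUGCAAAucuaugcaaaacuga
mmu-miR-19b-3p: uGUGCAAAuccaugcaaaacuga
mmu-miR-92a-3p: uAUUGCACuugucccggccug
Of these, miR-17-5p and miR-20a-5p share a seed, as do miR-19a-3p and miR-19b-3p. The pair in A330023F24Rik (chromosome 1, plus strand, 195037091 to 195037621) shares 1 seed, and the last comes from 4631405K08Rik (chromosome 1, minus strand, 193507503 to 193507524).
mmu-miR-29b-3p: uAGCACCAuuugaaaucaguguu
mmu-miR-29c-3p: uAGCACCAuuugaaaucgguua
mmu-miR-205-5p: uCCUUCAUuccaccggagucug

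Mir17hg (chr14:115042879-115046727), host of the miR-17 to miR-92 cluster, which promotes proliferation in many tissues, held 9.998, 5.48 and 8.89 CPM with DMSO and 14.5, 9.79 and 16.2 at 1 µM. It held 22.4, 19.02 and 22.8 CPM at 1.5 µM and 30.0, 19.6 and 25.9 at 3 µM. Each culture was higher at every step, and at 1.5 and 3 µM no library overlapped DMSO. It was 2.61-fold higher at 1.5 µM (log2 fold change 1.39, standard error 0.26, adjusted p = 0.00393) and 3.07-fold at 3 µM (log2 fold change 1.62, standard error 0.26, adjusted p = 0.00048). The 14 proliferation genes listed all rose in the same comparison.

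A330023F24Rik (chr1:194976375-195037908) holds Mir29b-2 and Mir29c, miRNAs known to repress collagens. It held 13.7, 12.6 and 10.02 CPM with DMSO and 8.78, 7.11 and 7.22 at 1 µM. It held 4.33, 4.03 and 4.11 CPM at 1.5 µM and 1.80, 1.22 and 3.80 at 3 µM. All CHIR99021 libraries lay below all DMSO libraries, and culture 3 changed least above 1.5 µM. It was 2.91-fold lower at 1.5 µM (log2 fold change -1.54, standard error 0.34, adjusted p = 0.00808) and 5.31-fold lower at 3 µM (log2 fold change -2.41, standard error 0.35, adjusted p = 0.000261).

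4631405K08Rik (chr1:193507238-193509803) holds Mir205, a miRNA abundant in basal epithelium. It held 5.11, 2.34 and 3.72 CPM with DMSO and 9.17, 3.91 and 28.3 at 3 µM. Culture 3 at 3 µM stood far above every other library, and the groups overlapped through culture 2. The log2 fold change was 1.87 (standard error 0.62, adjusted p = 0.0257), and the call was lost without that library or the DMSO library of culture 2 or 3 (adjusted p up to 0.164).

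Mir143hg (chromosome 18, start 61649625, end 61665537; Carmn in GENCODE M21), a lincRNA known from smooth muscle, held 5.02, 8.23 and 9.43 CPM with DMSO and 2.18, 3.26 and 7.10 at 1 µM. It held 0.700, 1.15 and 4.58 CPM at 1.5 µM and 0.314, 0.321 and 1.31 at 3 µM. Every culture was lower at every step, and culture 3 stayed highest. It was 11.5-fold lower at 3 µM (log2 fold change -3.52, standard error 0.84, adjusted p = 0.00499), a call lost without culture 2 (adjusted p = 0.0961), and with the culture block it was also called at 1.5 µM (adjusted p = 0.00127, against 0.1 without). The contractile genes among the basal markers fell with it in the same libraries. Oxtr was at -7.10 on the log2 scale (187 ± 25.8 CPM with DMSO, 1.39 ± 1.05 at 3 µM, adjusted p = 0.000154). Cnn1 was at -5.54 on the log2 scale (33.8 ± 13.0 CPM with DMSO, 0.712 ± 0.176 at 3 µM, adjusted p = 0.00637). The basal markers Krt14, Krt5 and Trp63 rose, at 3.84, 3.42 and 2.68 on the log2 scale (adjusted p up to 9.5e-05). The part of cell types in the fall of Mir143hg was not tested. Gm20748 (Bvht in GENCODE M21), next to it on the other strand and known from the heart lineage, fell to 3.14 ± 1.35 CPM from 6.04 ± 1.35 with DMSO (log2 fold change -0.94, adjusted p = 0.0308), a call lost without the DMSO library of culture 3 or the 3 µM library of culture 1 (adjusted p up to 0.0964). Pvt1, which lies beyond Myc, had a log2 fold change of 0.66 at 3 µM (standard error 0.50, adjusted p = 0.275). By position 11 members hold a miRNA gene of GENCODE M21, of which 3 were higher (29.9% of all rows) and 5 lower (27.7% of all rows) at 3 µM.

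**Figure D5:**
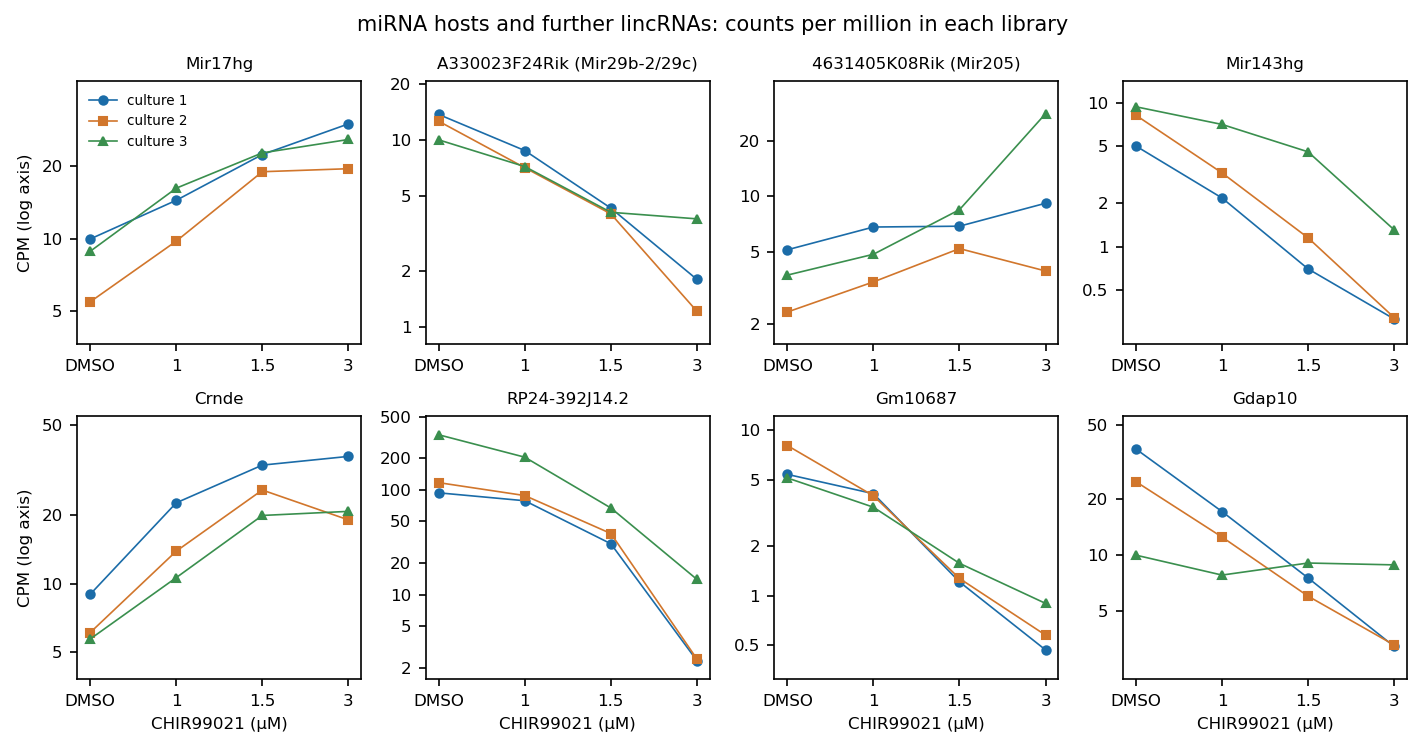
CPM on a log axis (vertical) in each of the 12 libraries by CHIR99021 dose (horizontal, groups evenly spaced) for 4 miRNA hosts and 4 further lincRNAs, with a line per culture. Mir17hg and Crnde rise and A330023F24Rik, Mir143hg, RP24-392J14.2 and Gm10687 fall in every culture, while 4631405K08Rik rises most and Gdap10 falls least in culture 3.

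Crnde (chr8:92326038-92356120), a lincRNA raised in colorectal tumours that starts head to head with the homeobox gene Irx5, rose from 1.5 µM. It held 8.98, 6.09 and 5.71 CPM with DMSO and 22.6, 13.9 and 10.6 at 1 µM. It held 33.2, 25.8 and 19.9 CPM at 1.5 µM and 36.2, 19.1 and 20.8 at 3 µM. No CHIR99021 library overlapped DMSO, and culture 1 was highest in every group. It was 3.78-fold higher at 1.5 µM (log2 fold change 1.92, standard error 0.36, adjusted p = 0.00385) and 3.64-fold at 3 µM (log2 fold change 1.86, standard error 0.36, adjusted p = 0.00138), and with the culture block it was called at 1 µM too (log2 fold change 1.18, adjusted p = 0.00715). Irx5, 1676 bp away, had 27.1 ± 11.9 CPM with DMSO and 84.5 ± 27.9 at 3 µM (log2 fold change 1.64, standard error 0.37, adjusted p = 0.00368). Gm21817, which lies within Crnde on the same strand and may share its reads, had a log2 fold change at 3 µM of 1.56 (adjusted p = 0.00434), a call lost without culture 3 (adjusted p = 0.0536). Irx3os, which overlaps Irx3 in the same cluster, was at 0.97 at 1.5 µM and 0.79 at 3 µM (adjusted p = 0.03 and 0.0353). Gm20554, next to Irx2 on chromosome 13, fell by 1.24 on the log2 scale at 3 µM (adjusted p = 0.00264). Irx3os and Gm20554 were picked after their values were seen.

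1700020I14Rik (chr2:119594297-119607502), the mouse Cyrano RNA, which directs the decay of the miRNA miR-7, fell at 3 µM. It held 227, 224 and 240.3 CPM with DMSO and 221, 202 and 218 at 1 µM. It held 212, 191 and 218 CPM at 1.5 µM and 165, 149 and 171 at 3 µM. Every CHIR99021 library lay below every DMSO library, and the 3 µM libraries lay below all others, 1.43-fold under DMSO (log2 fold change -0.51, standard error 0.08, adjusted p = 0.000444). At 1.5 µM it was called with the culture block (adjusted p = 0.0473) but not without (adjusted p = 0.184). 5330426P16Rik (Dubr in GENCODE M21) had a log2 fold change of 0.60 with a standard error of 0.53 (adjusted p = 0.352), and its level differed between cultures (adjusted p = 0.0208). The abundant members 1810058I24Rik and C330006A16Rik did not pass the test at 3 µM, 1810058I24Rik at 52.6 ± 6.53 and 54.1 ± 3.41 CPM with DMSO and at 3 µM (adjusted p = 0.73), and C330006A16Rik at 47.8 ± 3.86 and 53.2 ± 8.57 (adjusted p = 0.339).

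The lowest log2 fold change at 3 µM was that of RP24-392J14.2 (chr1:73522095-73529790; C530043A13Rik in GENCODE M21), named by its locus only. It held 93.7, 117 and 335 CPM with DMSO and 78.8, 88.2 and 205 at 1 µM. It held 30.6, 38.3 and 67.2 CPM at 1.5 µM and 2.35, 2.44 and 14.01 at 3 µM. Every culture was lower at every step, and culture 3 stood highest in each group. The fall at 3 µM was 29-fold (log2 fold change -4.86, standard error 0.85, adjusted p = 0.000858), and with the culture block the fall at 1.5 µM was called too (adjusted p = 0.000475, against 0.0677). The nearest protein-coding gene, Tns1, a focal adhesion protein 380441 bp away, had 273 ± 75.5 CPM with DMSO and 13.2 ± 5.43 at 3 µM (log2 fold change -4.36, standard error 0.33, adjusted p = 5.53e-06). The row overlaps another lincRNA row of the table, RP24-392J14.3.

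Gm10687 (chr9:44123768-44134485), typed as antisense in GENCODE M21, where it lies across Mcam, a cell adhesion molecule of vessel walls and smooth muscle, held 5.38, 8.02 and 5.12 CPM with DMSO and 4.11, 4.00 and 3.41 at 1 µM. It held 1.21, 1.27 and 1.56 CPM at 1.5 µM and 0.470, 0.578 and 0.897 at 3 µM. Groups were fully separated at each step, and it was the 1 member called lower between 1 and 1.5 µM (log2 fold change -1.51, adjusted p = 0.0171). Against DMSO, the 3 µM level was 9.36-fold lower (log2 fold change -3.23, standard error 0.31, adjusted p = 1.87e-05), and Mcam had 211 ± 40.3 CPM with DMSO and 41.0 ± 10.6 at 3 µM (log2 fold change -2.36, standard error 0.25, adjusted p = 4.15e-05). Gdap10 (chr12:32821872-32826904), inside Nampt on its strand, held 37.1, 24.8 and 9.96 CPM with DMSO and 3.21, 3.27 and 8.83 at 3 µM, with most of the fall in cultures 1 and 2 (log2 fold change -2.23, adjusted p = 0.00565), and the call was lost without either of them (adjusted p = 0.0945 and 0.115). Nampt, an enzyme of NAD synthesis, had 385 ± 203 CPM with DMSO and 122 ± 11.9 at 3 µM (log2 fold change -1.66, standard error 0.40, adjusted p = 0.00544). Reads of such overlapping pairs may be shared.

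AI480526 (chr5:123133723-123141666), head to head with the histone methyltransferase gene Setd1b, held 39.1, 41.9 and 33.9 CPM with DMSO, 29.9, 39.3 and 34.2 at 1.5 µM and 12.6, 11.0 and 14.4 at 3 µM. It was 3.02-fold lower at 3 µM with most of the fall above 1.5 µM (log2 fold change -1.60, adjusted p = 3.32e-05, against -0.15 at 1.5 µM). Setd1b had 69.2 ± 2.16 CPM with DMSO and 45.0 ± 2.004 at 3 µM (log2 fold change -0.62, standard error 0.08, adjusted p = 0.000151). A530020G20Rik, which lies across Slc44a3, stood at 32.6 ± 11.8 CPM with DMSO and 7.73 ± 2.19 at 3 µM (log2 fold change -2.08, adjusted p = 0.000228), while Slc44a3 itself did not pass the test (log2 fold change -0.33, adjusted p = 0.0835). Gm26767 fell by 1.88, 4930480K23Rik by 1.87, 4930556M19Rik by 1.74, D130017N08Rik by 1.73 and A430046D13Rik by 1.58 on the log2 scale, with adjusted p of 0.00405, 0.000192, 0.00104, 0.00097 and 0.00132. The Gm26767 call was lost without culture 1 or 2 (adjusted p = 0.0685 and 0.0845). Chmp7 and Usp42, the nearest coding genes of 4930480K23Rik and D130017N08Rik, were at -0.10 and 0.01 on the log2 scale and not called.

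The highest log2 fold changes were those of 2610035D17Rik and Gm26809, both named by their locus only. 2610035D17Rik (chr11:113043895-113201838) held 4.62, 3.35 and 1.99 CPM with DMSO and 11.2, 6.58 and 3.30 at 1 µM. It held 11.1, 9.61 and 5.74 CPM at 1.5 µM and 13.6, 14.9 and 13.4 at 3 µM. The cultures differed at 1 µM and came together at 3 µM, 4.19-fold above DMSO (log2 fold change 2.07, standard error 0.45, adjusted p = 0.00293), a call lost without culture 2 (adjusted p = 0.082). Gm26809 (chr6:18844220-18847360) held 12.5, 19.5 and 12.7 CPM with DMSO, 13.7, 19.1 and 31.3 at 1.5 µM and 28.1, 39.0 and 119 at 3 µM. Culture 3 at 3 µM stood far above the other cultures (log2 fold change 2.06, standard error 0.51, adjusted p = 0.00609). Lsm8, a subunit of the nuclear RNA-binding Lsm ring whose gene lies 1219 bp away on the same strand, had 18.2 ± 1.87 CPM with DMSO and 46.7 ± 7.54 at 3 µM (log2 fold change 1.36, standard error 0.13, adjusted p = 2.48e-05). 3300005D01Rik held 1.07, 2.44 and 1.94 CPM with DMSO and 2.59, 5.97 and 10.9 at 3 µM, higher in each culture but with cultures apart (log2 fold change 1.86, adjusted p = 0.0417). Its call was lost with scaling to library totals alone and when any 1 of 7 libraries was left out, all those of DMSO, those of culture 2 with CHIR99021 and that of culture 3 at 3 µM (adjusted p up to 0.158).

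Between neighbouring doses, which share libraries with the comparisons above, 3 members were called from 1 to 1.5 µM, Snhg4 and Snhg6 higher and Gm10687 lower, against 5.43% of all rows tested, 4.43% higher and 0.992% lower. DESeq2 called 7 (10.4% of the rows it adjusted). With the culture block the count was 12 (21.9% of all rows), and without a 1 or 1.5 µM library it was 0 or 1, and 7 without the 3 µM library of culture 3. From 1.5 to 3 µM 38 were called, 36 of them lower, against 29.7% of all rows in either direction, 17% higher and 12.7% lower. With the culture block 6 were called higher and 48 lower, against 46.7% of all rows in either direction, and with scaling to library totals alone, which moved the median of all rows to -0.28, 0 were higher and 50 lower, against 32.1%. The count was 13 when only the 2 groups were fitted, and 21 to 23 without a 1.5 µM library, 22 without the 3 µM library of culture 1 and 18 without that of culture 2. It was 4 without culture 1 and 2 without culture 2. The 2 called higher were Snhg6 and Gm26809, and both calls were lost with scaling to library totals alone (adjusted p = 0.119 and 0.0733). 1600020E01Rik, which lies across Pcbp1, was the 1 member called in opposite directions in successive steps. It held 7.82, 8.23 and 8.24 CPM with DMSO, 11.2, 11.2 and 12.6 at 1.5 µM and 9.49, 7.57 and 7.38 at 3 µM. It was higher at 1.5 µM than with DMSO (log2 fold change 0.53, adjusted p = 0.0173) and lower at 3 than at 1.5 µM (-0.52, adjusted p = 0.018). The first of these was lost without the DMSO library of culture 2 or 3 or the 1.5 µM library of culture 3.

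The cultures differed in several of these RNAs. Each animal gave 1 culture, so animal and culture preparation cannot be told apart. In a model with treatment and culture, 25 members differed between the 3 cultures (22.3%), against 28.8% of all rows tested. The lowest p were those of Snhg12 (adjusted p = 0.00136), RP24-392J14.2 (0.0014) and Gm17388 (0.0015). Gm17388 held 2.93, 1.93 and 4.42 CPM with DMSO and 1.65, 0.834 and 3.80 at 3 µM, with culture 2 lowest and culture 3 highest in both groups. The count was 5 without culture 1, 10 without culture 2 and 13 without culture 3, 14 or 16 without the 1.5 µM library of culture 3 or 1, 15 without the 1 µM library of culture 1 or 2, and 38 with DESeq2 (32.2% of the rows it adjusted). A slope over dose that differed between cultures was called by edgeR for 0 members and 0 of all rows, with 13 members and 1230 rows at an unadjusted p under 0.05, and by DESeq2 for 3 members and 229 rows (1.48%). The members of lowest p in edgeR were Gdap10 (adjusted p = 0.201), Malat1 (adjusted p = 0.447) and 4631405K08Rik (adjusted p = 0.470), where culture 3 stands apart in the values above.

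Members and their nearest protein-coding genes were set side by side at 3 µM. Of 103 members with a tested neighbour, 43 pairs had both genes called, 32 of them in the same direction, 8 higher and 24 lower. Of protein-coding rows paired with their nearest protein-coding row, 2555 of 4227 pairs with both called had the same direction. Across these 103 pairs, which share all libraries and in part reads, Pearson's r of the log2 fold changes was 0.229 and Spearman's rho 0.371. For the 26 pairs that overlap, r was 0.812, and all 10 pairs with both called had the same direction, as did 520 of 803 among overlapping protein-coding rows. The 45 pairs with a gap of 1 to 5000 bp gave 0.197 and the 32 more distant pairs 0.141. Among 11855 protein-coding rows with their own nearest protein-coding row, r was 0.309 and rho 0.160, so that the members' r was lower and their rho higher. In the 2434 overlapping pairs of protein-coding rows r was 0.279 and rho 0.222, and in the 26 overlapping pairs of members rho was 0.780.

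Of the 64 members that overlap no other row of the table, 9 were called higher and 26 lower at 3 µM. Of the 48 that overlap one, 10 were called higher and 19 lower. Among all rows tested, 29.9% were called higher and 27.7% lower. A RefSeq promoter (250 bases before to 50 after the start) was matched for 54 of the 112 members. The letters CTTTGA or CTTTGT, the core that TCF and LEF factors of the WNT pathway recognise, were searched on both strands. They were in 4 of 12 promoters of members called higher at 3 µM, in 4 of 25 of members called lower and in 31.2% of all RefSeq promoters. The 4 called higher are Snhg12, 2610035D17Rik, Gm1976 and 3300005D01Rik. The letters CACGTG, the core that MYC family factors recognise, were in 1 of the 12, 2 of the 25 and 7.15% of all promoters. The window matched to Mir17hg, 1 of the 12, lies inside the host row (chr14:115044140-115044439), across miR-20a-5p and miR-19b-3p. The start of the Mir17hg row was therefore not searched.

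Less abundant lincRNA rows, below the mean count of 50, were tested in 280 cases. Of these, 18 were higher and 75 lower at 3 µM, with a median log2 fold change of -0.62, against 19 higher and 45 lower of 112 members and -0.48. Protein-coding rows gave 4408 higher and 3930 lower of 14169, with a median of -0.01. The differences between these classes were not tested.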

How the data were processed

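Read counts per Ensembl gene were used as deposited for the 12 libraries. The authors' processing names TopHat2 2.1, Bowtie 1.1.0, HTSeq and DESeq2 and the builds GRCm38 and mm10, per the submitters' processing notes. Whether counting used the strand is not given in the sources used here, nor is the meaning of the words med, min and max in the library names. The members, gene lists and tests were chosen with earlier results of these data known.

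edgeR 4.0.16 (R 4.3.3, limma 3.58.1) fitted a quasi-likelihood model of the 4 groups over all 12 libraries and all rows that passed filterByExpr, with TMM scaling and Benjamini-Hochberg adjustment over all rows tested. A slope per µM, a difference between cultures and a slope that differs between cultures were tested likewise. CPM are TMM-scaled, and log2 CPM used a prior count of 2. Adjusted p-values are edgeR's unless DESeq2 (1.42.0) is named. In fits without the culture block they measure the spread between cultures of 3 animals. With the block, and in the tests of culture and of the slope difference, they measure the spread left after the culture terms. Comparisons against DMSO share its libraries. The code was tested on simulated data.

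Same-numbered libraries come from the same animal. Their deviations from the group means correlated in all 18 pairs (r 0.177 to 0.84, median 0.505), against a median of -0.212 in 36 other pairs, so the culture was also fitted as a block. No 2 replicates of a group agreed within sampling noise. Other alternatives were DESeq2, library-size scaling, no filter, only the 2 groups compared, other mean-count thresholds, members that overlap no other gene, and each library left out. Leaving out each culture was added after seeing the data.

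Named members are the 10 most abundant, those on the lists of known lincRNAs, those of largest called change per comparison, those of lowest p between cultures, members called in opposite directions in successive steps, and the 3 rows on each side of the count threshold. Any other member named was picked after its values were seen. Partner lists give their 2 called genes of largest change. The marker Adgre1 was read under its older symbol Emr1. Names, strands and exon lengths came from GENCODE M21, in which 102 of 112 members were found, and promoters and miRNAs from RefSeq (GRCm38.p6).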

Additional observations from a re-analysis of the deposited data

How the results depend on the processing

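Counts of members called depended on the processing more than single directions did. For omissions and for fits of only the 2 groups, the share of all rows called was not taken, so these counts stand without it. At 1 µM against DMSO, DESeq2 called 7 members and the culture block 9 where edgeR called 0, and leaving out libraries or cultures gave 0 to 1. At 1.5 µM against DMSO the block called 36 members in place of 22, the members that overlap no other gene gave 8, and omissions gave 5 to 24. At 3 µM against DMSO the 64 calls became 35 among members that overlap no other gene and 41 among those with a mean count of at least 100, which are smaller sets, and 35 to 67 with omissions. From 1 to 1.5 µM the 3 calls became 7 with DESeq2, 5 with only the 2 groups, 12 with the block, 0 among members that overlap no other gene and 0 to 7 with omissions. From 1.5 to 3 µM the 38 calls (2 higher, 36 lower) became 54 with the block (6 and 48), 50 with library-size scaling (0 and 50), 13 with only the 2 groups, 20 without overlapping members, 22 at a mean of at least 100, and 2 to 49 with omissions. For the slope, 59 calls became 33, 37 and 36 to 63 in the last 3 of these settings. Between cultures, 25 calls became 38 with DESeq2, 15 without overlapping members, 43 at a mean of at least 25 and 5 to 34 with omissions. DESeq2 called 3 members for the slope difference where edgeR called 0. For the pairing, the block changed 2 calls of named members at 3 µM, Snhg18 and Gm17388 (adjusted p = 0.0147 and 0.0376, both lower).

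Signs were compared for the named members, of which 6 changed sign in some setting, all of them not called at 3 µM. Yam1 was at 0.068 with the block and -0.36 to 0.31 with omissions. 1810058I24Rik was at -0.16 with library-size scaling, -5.89e-05 with only the 2 groups and -0.080 to 0.12 with omissions. C330006A16Rik was at -0.054 with library-size scaling. 1600020E01Rik was at -0.012 with DESeq2, -0.19 with library-size scaling, -0.027 without the filter, -0.032 with only the 2 groups and -0.14 to 0.082 with omissions. Omissions gave -0.067 to 0.52 for 2810008D09Rik and -0.16 to 0.72 for ENSMUSG00000100493. Apart from the smaller sets, the cause was not tested. Among the settings tried for single named members, 1011 kept direction and call, 126 lost the call, 21 changed sign and 2 gained a call. Low counts limit the rows near the threshold: 40 members had a group mean under 50 counts.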
